A study of Mus musculus with 10 samples.

Results

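Iron regulation in mouse liver and liver tumour tissue was followed here through 10 genes of the 31053 in the files, matched by symbol. They were the hepcidin genes Hamp and Hamp2, the transferrin gene Trf, the transferrin receptor genes Tfrc and Tfr2, the sensing genes Hfe and Bmp6, the ferritin genes Fth1 and Ftl1, and the exporter gene Slc40a1. All 10 had UMIs in every section. The series used 10x Genomics Visium slides, on which barcoded spots capture the 3′ ends of polyadenylated RNA from a thin frozen section, and each captured molecule is counted once as a unique molecular identifier (UMI). Sections numbered 10 over 7 mouse tissues, since NEJ146 was cut into 4 that adjoin each other and NEJ634, NEJ687, NEJ723, NEJ638, NEJ654 and NEJ677 gave 1 apiece. A spot can hold several cells, so the values describe regions and not cell types. The tissues came from ABC-Myc mice and, for the normal livers, from littermates.

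ABC-Myc mice (Alb-Cre;CAG-MYC) carry Cre under the albumin promoter and a MYC gene that is silent until Cre removes a stop cassette, so MYC is expressed in hepatocytes and their precursors. Control littermates in the study's methods lacked at least 1 of these transgenes, and which of those genotypes each normal liver had is not given in the sources used here, nor are the ages. The labels call all 7 tissues hepatoblastoma and name a tumour only for NEJ146. The study's text names NEJ146, NEJ634, NEJ687 and NEJ723 as tumours and treats the other 3 as normal liver, but since the labels do not say so, each tissue was kept as a group of its own and no tumour was tested against liver. Most markers differed between these sets. Afp, Igf2, Dlk1 and Gpc3, which mark hepatoblastoma, summed to between 2136 and 4630 CPM (UMIs of a gene per 1000000 UMIs over tissue spots) in the 4 tissues and to between 4.61 and 15.0 in the other 3. Afp made up most of this sum, and Gpc3 alone overlapped, at 5.12 CPM in NEJ638 against 3.59 in NEJ146. The 6 hepatocyte markers summed to between 19900 and 27740 CPM in the 4 and between 77330 and 111300 in the 3, with Alb, Ttr, Apob and Asgr1 lower in the 4 without overlap and Cps1 and Fgb overlapping. NEJ146 was labelled total RNA and the other tissues polyA RNA, and its sections held a higher mitochondrial share of UMIs, 6.78% to 7.22% against 2.46% to 3.86%, so tissue and preparation cannot be told apart there. Sections held 61627315 to 117556249 UMIs, with 1890 to 4878 tissue spots and a median of 12134 to 28927 UMIs per tissue spot. Tissue spots held 57.0% to 72.7% of the UMIs in NEJ654, NEJ677, NEJ634, NEJ723 and NEJ638. They held 93.2% to 99.6% in NEJ687 and NEJ146, the latter with tissue spots taken by UMI number. Many UMIs thus lay on spots called off tissue, and the effect of this on comparisons of spots was not tested.

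Hepcidin is a peptide hormone secreted by hepatocytes. It binds ferroportin, the product of Slc40a1 and the only known cellular iron exporter, and causes its degradation, so that iron stays in macrophages and enterocytes. Hepatocytes set hepcidin transcription from transferrin-bound iron, sensed through Hfe and the second transferrin receptor Tfr2, and from bone morphogenetic protein 6, which endothelial cells of the liver secrete when iron is high. Within a cell, iron regulatory proteins bind stem-loops called iron-responsive elements, which block translation of ferritin and ferroportin mRNA when they lie before the coding sequence and protect Tfrc mRNA from decay when they lie after it.

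These elements are shown because they divide the members by control after transcription, which UMI counts do not read beyond mRNA level. A pattern of 5 paired bases, an unpaired C, 5 paired bases and the loop CAGTGN, searched on the transcript strand of GENCODE release M21 with at least 4 pairs in the lower stem, was present in 45 of 55450 genes (0.0812%). Among the members, Tfrc had 4 such sites, all after the coding sequence, and Fth1, Ftl1 and Slc40a1 had 1 each before it. The other members had none in these letters. The loop is in capitals.
Tfrc, chr16:32631220-32631246 (+): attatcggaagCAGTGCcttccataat
Tfrc, chr16:32631599-32631625 (+): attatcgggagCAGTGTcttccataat
Tfrc, chr16:32631664-32631690 (+): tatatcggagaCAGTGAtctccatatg
Tfrc, chr16:32631711-32631737 (+): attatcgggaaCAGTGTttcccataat
Fth1, chr19:9982733-9982759 (+): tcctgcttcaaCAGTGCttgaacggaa
Ftl1, chr7:45459780-45459806 (-): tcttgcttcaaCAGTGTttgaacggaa
Slc40a1, chr1:45925466-45925492 (-): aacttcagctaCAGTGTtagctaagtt
All coordinates are on GRCm38.

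Hamp (chr7:30942368-30944032) and Hamp2 (chr7:30922372-30924681) lie on the same strand with 17686 bases between them. The 250 bases before the start of Hamp matched the corresponding bases of Hamp2 at 230 positions (92%), in RefSeq windows of build GRCm38.p6. The stretches below run from 130 to 71 bases before the RefSeq start of Hamp and from 127 to 68 before that of Hamp2. The Hamp2 stretch lies inside the gene span given above, whose start is further upstream than the RefSeq start. Both stretches are shown because the genes are near copies that differed widely in level between the tissues. Capitals mark the 6 bases of the BMP-responsive element and the 9 bases of the STAT3 element, both known to control hepcidin.
Hamp, chr7:30944100-30944159 (-): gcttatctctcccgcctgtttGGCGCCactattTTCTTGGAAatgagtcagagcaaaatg
Hamp2, chr7:30924249-30924308 (-): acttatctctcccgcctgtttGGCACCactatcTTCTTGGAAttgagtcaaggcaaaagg
The 6-base element carried the substitution G4A in Hamp2, counted from 1 at its own first base with the base of Hamp first. GGCGCC was found on either strand in 3898 of 32851 promoter windows of 300 bases (11.9%) and TTCTTGGAA in 137 (0.417%). Of the members with a window, only Hamp held both, Tfrc also held GGCGCC and Hamp2 also held TTCTTGGAA. A match describes letters and not a working site.

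Levels of the hepcidin genes spanned the widest range of all members. Hamp was 1540.4 CPM in NEJ634, 1132 in NEJ677, 1042 in NEJ654, 820.3 in NEJ687, 429 in NEJ723, 231 ± 41.9 in NEJ146 (SD over 4 sections) and 9.59 in NEJ638. The last value rested on 491 UMIs (95% exact Poisson interval 8.76 to 10.5 CPM, which like all such intervals here covers counting error only). Thus the tissue with the lowest level was among the 3 that the study treats as liver and stood 109-fold below NEJ654 and 118-fold below NEJ677, and 11.9% of its tissue spots held a Hamp UMI against 91.8% in NEJ677. Spots called off tissue carried Hamp at 14.9 CPM in NEJ638 and at 1120.1 in NEJ677. These spots belong to the same sections, so their values are not independent support for the difference.

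Hamp2 had another order. It was highest in NEJ654 at 1820.3 CPM, followed by NEJ677 at 594, NEJ634 at 151, NEJ146 at 122 ± 21.2, NEJ638 at 39.3, NEJ687 at 15.4 and NEJ723 at 6.74. No neighbours in either order overlapped in their counting intervals or, for NEJ146, its SD over sections. NEJ638 had more Hamp2 than Hamp, with a ratio of UMIs of 4.09, as did NEJ654 at 1.75. The ratio was 0.529 in NEJ146, 0.525 in NEJ677, 0.0978 in NEJ634, 0.0188 in NEJ687 and 0.0157 in NEJ723. UMIs at 3′ ends are not scaled by length, and reads of such near copies may be shared or dropped in counting, so the ratio between tissues is firmer than its size in a tissue. Sex was not labelled. Xist, expressed from the inactive X chromosome, was between 38.9 and 63.9 CPM in NEJ146, NEJ634, NEJ638 and NEJ654, and the Y-linked Ddx3y was between 20.9 and 24.2 CPM in NEJ687, NEJ723 and NEJ677, and the part of sex in the hepcidin levels was not tested.

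**Figure D1:**
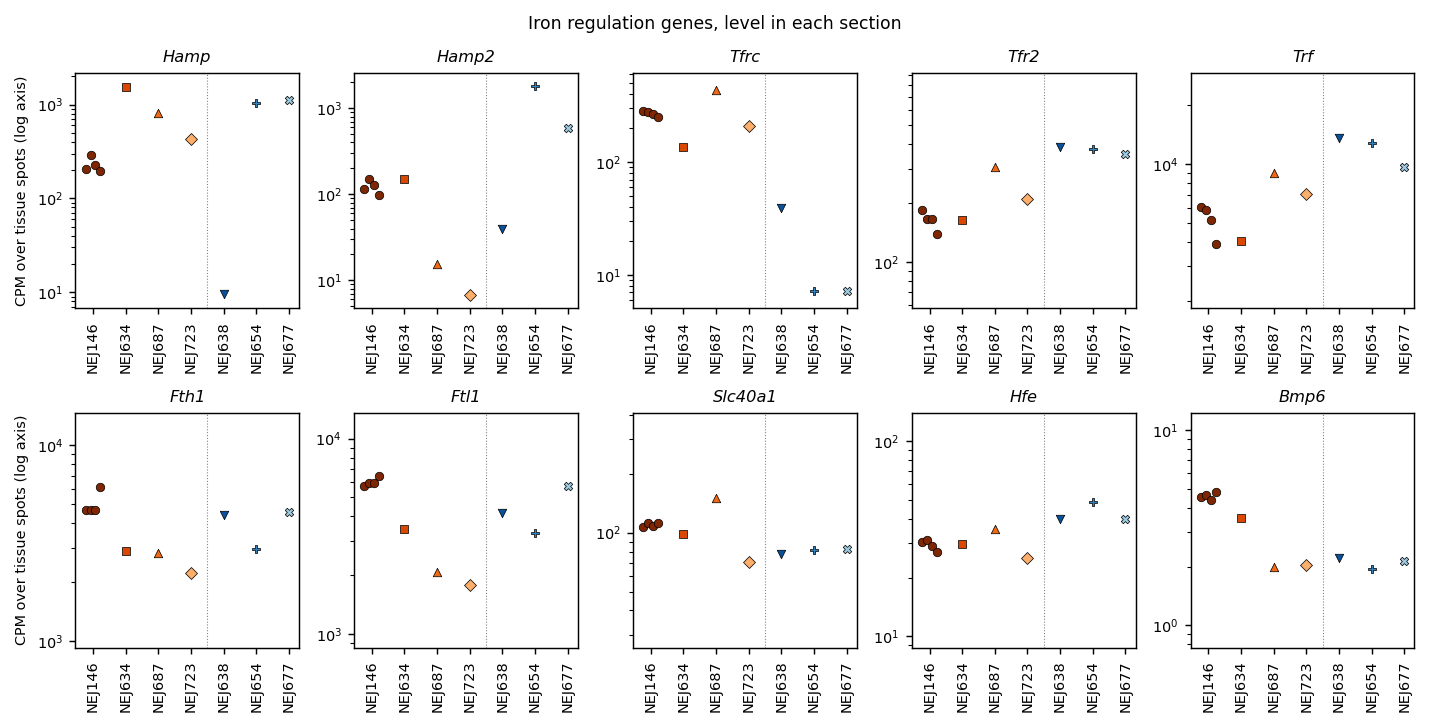
Level of each iron gene (CPM over tissue spots, log axis) in the 10 sections, with the 4 NEJ146 sections side by side and a dotted line between the tissues that the study's text names as tumours (left) and the other 3 (right). Tfrc lies between 137 and 439 CPM on the left and between 7.18 and 38.8 on the right, whereas Hamp ranges from 9.59 to 1540.4 with both sets overlapping.

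Tfrc, the receptor through which cells take up transferrin-bound iron, was the only member whose lowest level in NEJ146, NEJ634, NEJ687 and NEJ723 exceeded its highest in NEJ638, NEJ654 and NEJ677. It was 439 CPM in NEJ687, 272 ± 14.9 in NEJ146, 211 in NEJ723 and 137 in NEJ634, then 38.8 in NEJ638, 7.20 in NEJ654 and 7.18 in NEJ677. The sets were separated by a gap of 1.79 on the log2 scale of CPM + 1, and NEJ654 and NEJ677 did not differ beyond counting error. The 10 erythroid markers, of which Tfrc is not one, summed to 446 CPM in NEJ687, 129 in NEJ146, 126 in NEJ723 and 41.8 in NEJ634, the same order as Tfrc. They summed to 56.5 in NEJ677, 24.6 in NEJ654 and 20.6 in NEJ638, with 3, 4 and 2 of the 10 at 0, so the sets overlapped in these markers. Adult globin genes summed to between 915 and 9419 CPM in the 4 tissues and between 80.0 and 226 in the 3, and the part of erythroid cells in the Tfrc difference was not tested. NEJ638, the tissue nearly without Hamp, stood 5.39-fold above NEJ654 and 5.41-fold above NEJ677 in Tfrc. Whether fewer cells of a type or less RNA per cell lies behind any such difference cannot be told apart in section totals. Of 12648 genes that averaged 1 CPM or more over the tissues, 42.1% were higher in the 4 tissues without overlap and 16.3% were lower, so 1 member higher and 3 lower (Tfr2, Trf and Hfe) of 10 is not a count that sets the list apart. The median log2 ratio of the 4-tissue to the 3-tissue mean was -0.35 over the members and 0.42 over all genes tested. With a gap of at least 1 on the log2 scale, Tfrc alone remained. Without NEJ638 the Tfrc gap was 4.07 and Hamp2 became lower without overlap, at a gap of -1.97. The 42.1% and 16.3% belong to the first rule and not to these changed ones, so neither result sets a member apart from all genes.

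Trf, the plasma carrier of iron made by hepatocytes, was 13663 CPM in NEJ638, 12910 in NEJ654 and 9727 in NEJ677. It was 9014 in NEJ687, 7010.25 in NEJ723, 5247 ± 962 in NEJ146 and 4066 in NEJ634. All 3 tissues of the first set lay above the 4 others, with a gap of -0.11 on the log2 scale between NEJ677 and NEJ687, or -0.47 without NEJ687 and -0.52 without NEJ677. Of the 6 hepatocyte markers, 4 were lower in the same 4 tissues without overlap, while Cps1 and Fgb overlapped (Fgb was highest in NEJ687, at 5104 CPM), and their part in the Trf difference was not tested.

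The sensors were expressed in a narrow range. Tfr2 was 385, 377 and 359 CPM in NEJ638, NEJ654 and NEJ677, against 306 in NEJ687, 211 in NEJ723, 164 in NEJ634 and 163 ± 19.2 in NEJ146. Hfe, which codes for a protein that binds transferrin receptors, was 48.6 in NEJ654, 40.0 in NEJ677 and 39.7 in NEJ638, and between 25.1 and 35.3 in the 4 others. Both genes were lower in the 4 tissues, with gaps of -0.23 for Tfr2 and -0.16 for Hfe on the log2 scale, or -0.77 and -0.41 without NEJ687. Bmp6 was near the limit of the assay, with 83 to 201 UMIs in the tissues with 1 section. It was 4.62 ± 0.193 CPM in NEJ146 and 3.56 in NEJ634, and between 1.95 and 2.21 in the other 5, whose neighbours in order overlapped in their counting intervals.

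The ferritin subunits and the exporter did not separate the sets. Fth1, the heavy subunit that oxidises iron for storage, ran from 2223 CPM in NEJ723 to 5033 ± 713 in NEJ146, with NEJ677 at 4552, NEJ638 at 4382, NEJ654 at 2947, NEJ634 at 2881 and NEJ687 at 2814, and without NEJ146 it was lower in the 4-tissue set at a gap of -0.03. Ftl1, the light subunit, was 6018 ± 323 in NEJ146, 5749 in NEJ677, 4167 in NEJ638, 3432 in NEJ634, 3290.4 in NEJ654, 2079 in NEJ687 and 1788 in NEJ723. For both subunits NEJ146 and NEJ677 overlapped and NEJ687 and NEJ723 were lowest. The pseudogene Ftl1-ps1 was counted at 34.8 to 129 CPM and may share reads with Ftl1. Slc40a1 was 150.1 in NEJ687, 109.6 ± 2.75 in NEJ146, 98.0 in NEJ634, 82.4 in NEJ677, 81.6 in NEJ654, 77.7 in NEJ638 and 70.7 in NEJ723, so the highest and lowest tissues both lay in the set of 4, and without NEJ723 the 4-tissue set lay above the other by 0.25 on the log2 scale.

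Other genes of the pathway, in lists chosen for their roles, are read against the same 42.1% of all genes higher and 16.3% lower without overlap, and no list is set apart by its counts. Of 19 genes of hepcidin control, 4 were higher in the 4 tissues without overlap and 3 lower. The largest gaps were 1.98 for Erfe, the hormone of erythroid precursors that lowers hepcidin, -1.16 for Tmprss6, the protease that restrains hepcidin, and -0.80 for Bmp2, a ligand that liver endothelial cells also make. Endothelial markers summed to between 98.6 and 205 CPM in the 4 tissues and between 227 and 268 in the 3. Of these 8 markers Clec4g, Kdr, Oit3 and Ptprb were lower in the 4 tissues without overlap and Stab2, Pecam1, Lyve1 and Cdh5 overlapped, Pecam1 and Lyve1 with the higher mean in the 4. Their part in the Bmp2 difference was not tested. Erfe was 15.7 CPM in NEJ687, 7.95 in NEJ723, 4.26 in NEJ634 and 3.35 in NEJ146, and had 1 to 5 UMIs in each of the 3 tissues. NEJ687 was highest in the erythroid sum given beside Tfrc as well, but NEJ146 was highest in adult globin and NEJ634 lay below NEJ677 in the erythroid sum, and the part of erythroid cells in the Erfe difference was not tested. Of 13 tested genes of iron uptake and handling, 6 were higher and 3 lower, led by the iron-binding proteins Ltf (gap 3.24) and Lcn2 (1.98) and the ferrireductase Steap2 (1.49). Ltf and Lcn2 are neutrophil granule genes, and the summed neutrophil markers were 328 to 1064 CPM in the 4 tissues against 7.71 to 18.5 in the 3. The part of neutrophils in the Ltf and Lcn2 differences was not tested. In NEJ654 spots at or below the median globin share, Lcn2 was 18.8 CPM and the neutrophil markers summed to 6.19. In such spots of NEJ638 the values were 20.4 and 15.9. Of 6 tested genes of iron sensing and ferritin turnover 2 were higher and 1 lower, and of 9 genes of heme recovery 3 were higher and 3 lower, with heme oxygenase Hmox1 at a gap of 0.98. Among 8021 genes that averaged 10 CPM or more, the patterns over the 7 tissues most like that of Tfrc were those of Mdh2, Tarsl2 and Cyc1 (Pearson's r 0.994, 0.993 and 0.992 on log2 of CPM + 1). Those most like Hamp were St5, Dtx4 and Ppp1r10 (0.970, 0.901 and 0.891), and those most like Slc40a1 were Tmem230, Fcgr4 and Ddah1 (0.993, 0.967 and 0.967). Hamp and Hamp2 correlated at 0.345 only. These are descriptions over 7 points of unequal depth.

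To ask how the iron genes relate to haemoglobin RNA within the 4 tissues named as tumours, the 10% of tissue spots with the highest share of adult globin UMIs were compared with spots at or below the median, with counts summed per tissue and tissue as a block. Globin-rich spots held 5.74-fold to 17.3-fold more of the 10 erythroid markers and 1.62-fold to 5.06-fold more of the neutrophil markers. The macrophage markers were also higher in 4 of 4 tissues, by 1.03-fold to 1.76-fold, and the hepatocyte markers were 0.671 to 0.965 of their level in poor spots. With edgeR's quasi-likelihood test 0 of 10 members had an adjusted p under 0.05 (3 had an unadjusted p under 0.05 and DESeq2 called 1, Trf), beside 1.05% of 13857 genes called higher and 0.0433% called lower.

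**Figure D2:**
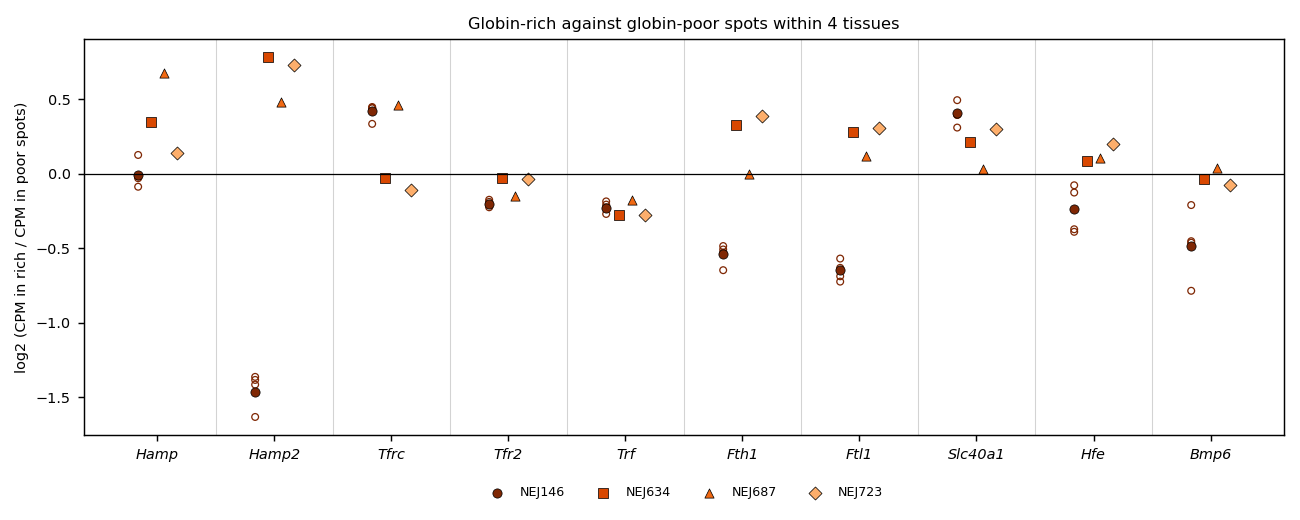
Log2 ratio of CPM in globin-rich over globin-poor spots for each iron gene in the 4 tissues, with filled symbols for tissues and open circles for the 4 NEJ146 sections. Hamp2 lies at -1.47 in NEJ146 and between 0.48 and 0.78 in the other 3 tissues, while Trf lies between -0.28 and -0.18 in all 4.

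Trf was 4559 CPM in rich and 5357 in poor spots of NEJ146, 3549 and 4288 in NEJ634, 8201 and 9270.3 in NEJ687, and 6116 and 7403 in NEJ723. It was thus lower in rich spots in 4 of 4 tissues, by a log2 fold change of -0.27 ± 0.05 (SE approximated from the F statistic, edgeR adjusted p = 0.085), and it passed with DESeq2 (adjusted p = 0.0046), without the filter on low counts (0.026) and with the top 5% of spots (0.031). The summed hepatocyte markers were lower in the same spots, and their part was not tested. Of these markers, Alb went the other way in NEJ687. It was 6530 CPM there in the 10% of spots with the least globin and 8881 in the 10% with the most. Between the same ends Alb fell in NEJ146, NEJ634 and NEJ723. Slc40a1 was higher in rich spots in 4 of 4 tissues, from 151.6 to 155 CPM in NEJ687 and from 96.7 to 128 in NEJ146, with a fitted log2 fold change of 0.21 ± 0.08 (adjusted p = 0.40). The macrophage markers were higher in the same spots, and their part was not tested. Hamp was 1021 in rich and 639 in poor spots of NEJ687, 1737 and 1366 in NEJ634, 420.4 and 381 in NEJ723, and 227 and 229 in NEJ146 (0.26 ± 0.11, adjusted p = 0.50).

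Hamp2 ran in opposite directions. In NEJ146 it was 57.7 CPM in rich and 161 in poor spots, with log2 ratios of -1.63 to -1.36 in its 4 sections. It was 185 and 107 in NEJ634, 18.2 and 12.7 in NEJ687 and 9.28 and 5.20 in NEJ723. The fit over 4 tissues therefore gave 0.0028 (edgeR adjusted p = 0.9998), and the fit without NEJ146 gave 0.69 (edgeR adjusted p = 0.018). NEJ146 was the tissue already seen to run the other way, so the last p-value is not independent support. Rich spots held only 111 Hamp2 UMIs in NEJ687 and 37 in NEJ723. Ftl1 was also lower in rich spots of NEJ146, 4516 against 7066 CPM, and higher in the other 3, by 0.12 to 0.31 on the log2 scale. These differences between tissues were not tested. Pericentral markers mark hepatocytes around the central vein in liver. They summed to between 81.4 and 479 CPM in these 4 tissues and between 4185 and 6280 in the other 3. In globin-rich spots they were 0.437 of their level in poor spots in NEJ146, lower in NEJ687 too, and higher in NEJ634 and NEJ723, by up to 1.65-fold. Their part in the opposite directions of Hamp2 was not tested.

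**Figure D3:**
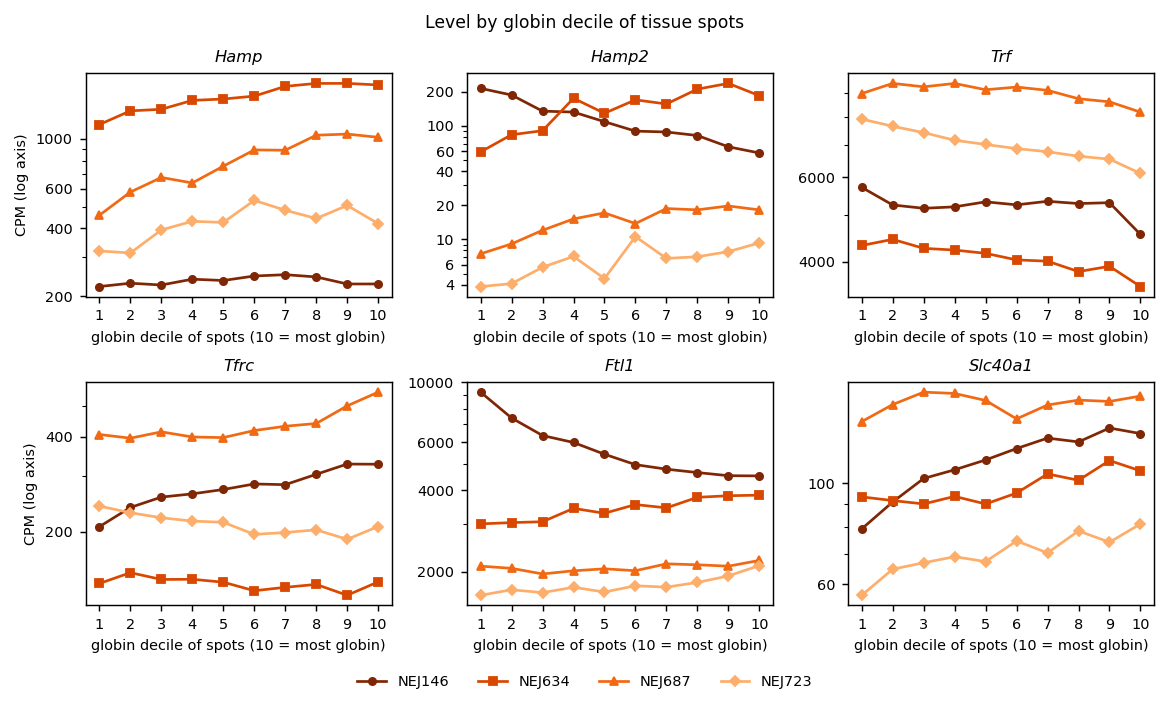
CPM (log axis) of 6 iron genes in deciles of tissue spots ordered by globin share in the 4 tissues, with decile 10 holding the most globin. From decile 1 to decile 10 Hamp2 goes from 214 to 57.8 CPM in NEJ146 and from 59.0 to 185 in NEJ634, and Trf is lower in decile 10 than in decile 1 in all 4 tissues.

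In NEJ146, Ftl1 went from 9194 CPM in the decile of spots with the least globin to 4516 in the decile with the most, Slc40a1 from 79.4 to 128 and Tfrc from 208 to 328. In NEJ687, Hamp went from 458 to 1017 and Tfrc from 407 to 555. Tfrc went the other way in NEJ723, from 241 to 208, and stayed between 137 and 139 at both ends in NEJ634. Globin made up 5.93% of UMIs in the top decile of NEJ146 and 0.556% in that of NEJ634, so these deciles are not alike in globin content. In NEJ638, NEJ654 and NEJ677, where globin was scarce, the log2 ratios of the members between sets drawn by the same rule were -0.20 to 0.38. The highest was Bmp6 in NEJ654, on 11 UMIs in rich spots. Poor spots of NEJ654 and NEJ677 held no globin UMI, so these sets are not alike those of the 4 tissues. Among other iron genes, Slc25a37, the mitochondrial iron importer of erythroid cells, rose in globin-rich spots (1.59 ± 0.16, edgeR adjusted p = 0.0045). So did 2 of 9 heme recovery genes, Blvrb (0.80 ± 0.12, 0.028) and Hmox1 (0.67 ± 0.09, 0.020). None of the other genes in the 4 lists passed. Erythroid, neutrophil and macrophage markers were all higher in these spots, and their part was not tested.

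Along the liver lobule, from the portal tract to the central vein, 6 of 10 members differed. Tissue spots of NEJ638, NEJ654 and NEJ677 were put in 5 equal bins by the log2 ratio of 5 pericentral to 5 periportal markers, none of them an iron gene, and bin 5 (pericentral) was compared with bin 1 (periportal). Hamp, Hamp2, Slc40a1 and Trf were lower in pericentral spots and Fth1 and Ftl1 were higher. Over 11934 genes tested, 8.01% were called higher and 8.85% lower.

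**Figure D4:**
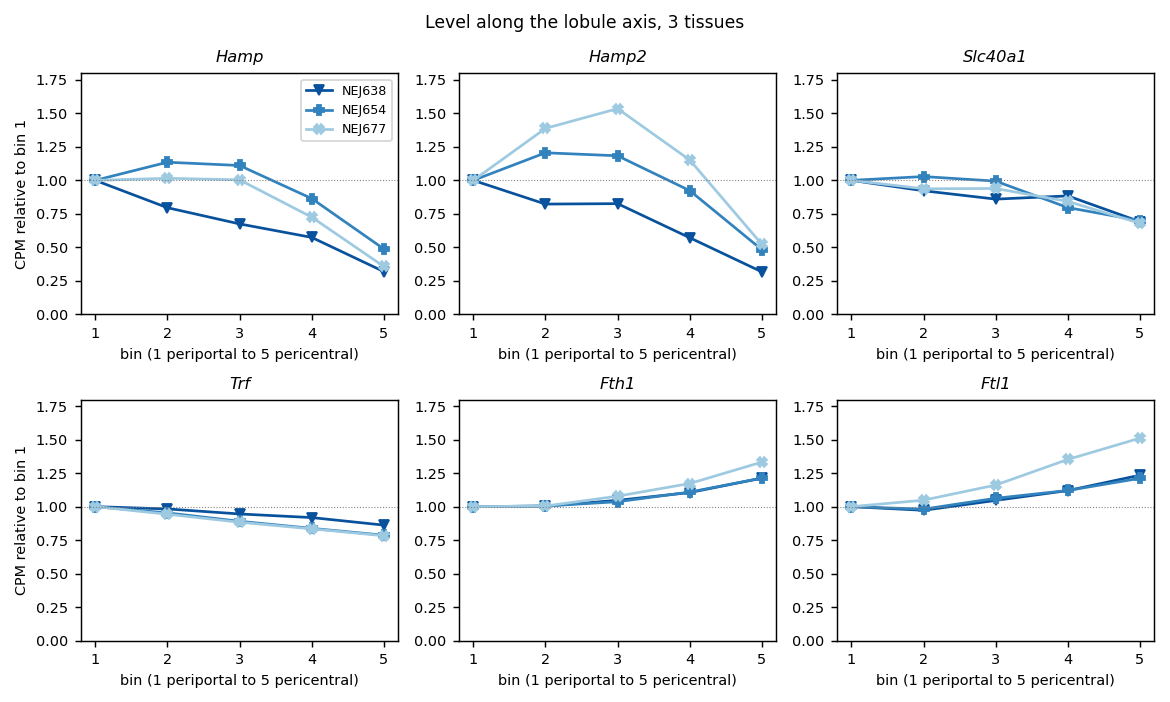
CPM of 6 iron genes in 5 bins from periportal (1) to pericentral (5), relative to bin 1, in NEJ638, NEJ654 and NEJ677. Hamp and Hamp2 fall to between 0.316 and 0.522 of bin 1 in bin 5, and Fth1 and Ftl1 reach between 1.21 and 1.51.

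Hamp was 1406 CPM in bin 1 and 502 in bin 5 of NEJ677, 1160.1 and 566 in NEJ654, and 14.7 and 4.68 in NEJ638. Hamp2 was 544 and 284, 1951 and 940.005, and 57.4 and 18.2 in the same tissues. Both fell in 3 of 3 tissues, NEJ638 with its low level included, by -1.40 ± 0.10 (edgeR adjusted p = 2.7e-07) and -1.23 ± 0.10 (9.7e-07). Slc40a1 was 94.3 and 64.1 CPM in NEJ677, 91.2 and 63.7 in NEJ654 and 90.1 and 62.3 in NEJ638, a fall by 0.60 ± 0.07 on the log2 scale (adjusted p = 2.6e-05). Levels in these end bins lay close together in the 3 tissues, whereas Hamp stood 118-fold higher in NEJ677 than in NEJ638 over all tissue spots. In bins 2 and 3 the spread was wider, from 83.1 and 77.5 CPM in NEJ638 to 93.8 and 90.7 in NEJ654. From bin 1 to bin 5 the summed macrophage markers went from 613 to 335 CPM in NEJ677, from 697 to 475 in NEJ654 and from 354 to 286 in NEJ638. With bins drawn within 5 equal groups of spots by macrophage markers, the log2 fold changes were -1.30 for Hamp, -1.11 for Hamp2 and -0.52 for Slc40a1, against -1.42, -1.29 and -0.64 within groups by spot UMIs, and all 6 members passed in both.

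Trf fell from 14584 to 12573 CPM in NEJ638, from 14482 to 11395 in NEJ654 and from 10963 to 8579 in NEJ677 (-0.37 ± 0.08, adjusted p = 0.0043). Fth1 rose from 4048 to 4910 CPM, from 2734 to 3317 and from 4055 to 5404 in the same order (0.26 ± 0.07, adjusted p = 0.017). Ftl1 rose from 3838 to 4740, from 3045 to 3690.2 and from 4706 to 7115 (0.33 ± 0.08, adjusted p = 0.0087). The summed hepatocyte markers went from 102564 to 78047 CPM in NEJ638, from 133900 to 85813 in NEJ654 and from 89711 to 59336 in NEJ677 along the axis, and their part in these 3 differences was not tested. The 3 calls of Trf, Fth1 and Ftl1 were lost without NEJ654 (adjusted p = 0.20, 0.16 and 0.069), while those of Hamp, Hamp2 and Slc40a1 held. Tfrc, Tfr2, Hfe and Bmp6 did not pass, and Bmp6 had 10 to 28 UMIs in a bin.

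The middle of the axis (bin 3) was set against both ends. Hamp (0.58 ± 0.05) and Hamp2 (0.78 ± 0.06) passed (edgeR adjusted p = 1.4e-08 for both) beside 0.931% of 12356 genes called higher and 1.61% lower. This comparison did not mark a peak in bin 3, except for Hamp2 in NEJ677. Hamp was highest in bin 1 in NEJ638 and in bin 2 in NEJ654 and NEJ677. Hamp2 was highest in bin 1 in NEJ638 and in bin 2 in NEJ654. The ratio of bin 3 to bin 1 was 0.675 for Hamp and 0.826 for Hamp2 in NEJ638, 1.11 and 1.18 in NEJ654, and 1.004 and 1.54 in NEJ677, and bin 5 was the lowest in all of them. With DESeq2 Hamp did not pass (0.48, adjusted p = 0.23). Slc40a1 was called without NEJ638 (0.23, edgeR adjusted p = 0.011) and Fth1 without NEJ677 (-0.11, 0.040).

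Other iron genes are read against the same 8.01% of all genes called higher and 8.85% lower along the axis. Of 18 tested genes of hepcidin control 2 passed, 1 in each direction. Id1, a target of BMP signalling, fell by 0.65 ± 0.12 on the log2 scale toward the central vein (edgeR adjusted p = 0.0014) and Socs3, a target of STAT3, rose by 0.47 ± 0.13 (0.026). Of 11 tested genes of iron uptake and handling 4 fell and 2 rose, led by Steap2 (-1.27 ± 0.14), Lcn2 (-0.65 ± 0.15) and the iron transporter Slc39a14 (-0.39 ± 0.08). Of 9 genes of heme recovery 3 fell and 2 rose, led by Blvrb (1.61 ± 0.07), the heme-binding plasma protein Hpx (-0.95 ± 0.07) and the haemoglobin receptor Cd163 (-0.86 ± 0.25). None of 6 tested genes of iron sensing and ferritin turnover passed. The median log2 fold change was -0.11 over the members, -0.0014 over hepcidin control, -0.18 over uptake and handling, 0.07 over iron sensing, -0.30 over heme recovery and 0.00019 over all genes.

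Liver macrophages recycle iron from old red cells and release it through ferroportin. In the 10% of tissue spots richest in 9 macrophage markers, against spots at or below the median in each of 7 tissues, Slc40a1, Hamp and Hfe were higher. This compares with 3.28% of 13218 genes called higher and 0.492% lower. Slc40a1 was 142 CPM in rich and 97.7 in poor spots of NEJ146, 132 and 85.3 in NEJ634, 211 and 131 in NEJ687, 79.2 and 64.6 in NEJ723, 99.8 and 71.0 in NEJ638, 107.5 and 70.9 in NEJ654, and 118 and 76.1 in NEJ677. It was higher in 7 of 7 tissues, with a log2 fold change of 0.51 ± 0.06 (edgeR adjusted p = 3.4e-04), and passed in all 15 alternatives (0.43 to 0.56). The markers were not alike in all tissues. In NEJ723 Clec4f was 0.275 CPM and Vsig4 0.665, against 75.2 to 152 and 22.5 to 83.7 in the others. Timd4 was lowest there too, whereas Cd5l, Adgre1 and Csf1r lay within the range of the other tissues.

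**Figure D5:**
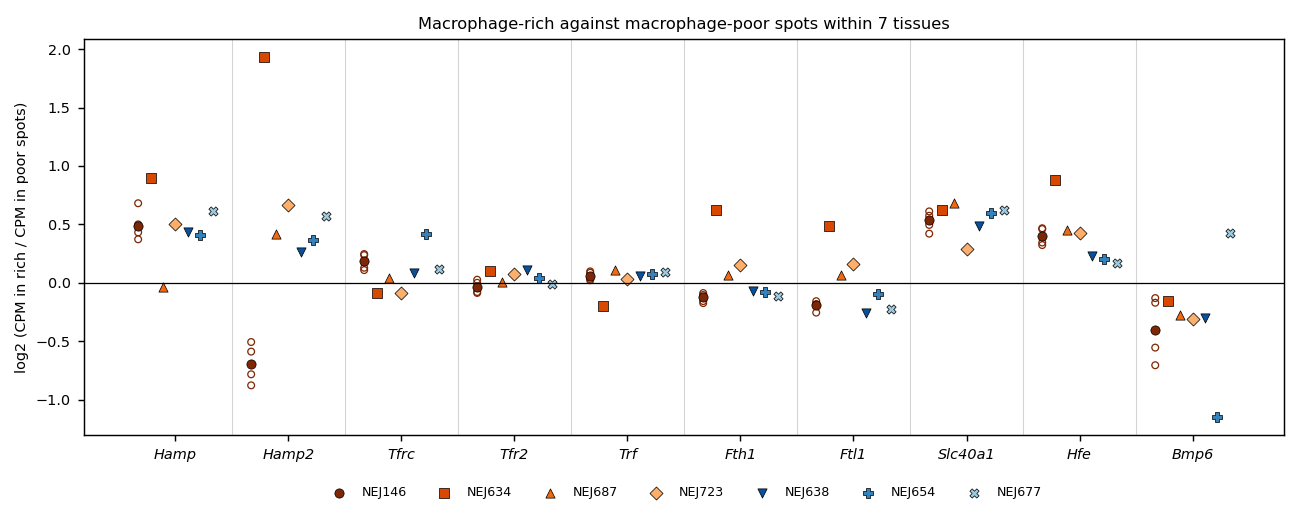
Log2 ratio of CPM in macrophage-rich over macrophage-poor spots for each iron gene in the 7 tissues, with filled symbols for tissues and open circles for the 4 NEJ146 sections. Slc40a1 lies between 0.29 and 0.68 and Hfe between 0.17 and 0.88 in all 7, and Hamp2 lies at -0.69 in NEJ146 and above 0 in the other 6.

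Hamp was higher in rich spots in 6 of 7 tissues, with NEJ687 at -0.04 on the log2 scale and the others at 0.41 to 0.90 (fit 0.43 ± 0.10, edgeR adjusted p = 0.027). It passed in 9 of 15 alternatives and was lost without NEJ146, NEJ723, NEJ654 or NEJ677 (adjusted p = 0.064 to 0.099). Hfe was higher in 7 of 7 tissues by 0.17 to 0.88 (0.36 ± 0.09, adjusted p = 0.045) and passed in 6 of 15, being lost without any single tissue but NEJ634 (adjusted p = 0.064 to 0.13). In macrophage-rich spots the pericentral markers were 0.409 to 1.96 of their level in poor spots, higher in 2 of 7 tissues. Endothelial markers were higher in 6 of 7 (ratios of 0.971 to 2.02) and neutrophil markers in 5 of 7 (0.863 to 2.87). When spots were drawn within 5 equal groups along the lobule axis Slc40a1 and Hfe passed and Hamp did not (0.31, edgeR adjusted p = 0.13). That axis was defined in liver, and pericentral markers summed to only 81.4 to 479 CPM in the 4 tissues named as tumours. Whether it follows a lobule in those tissues was not tested. Bmp6 was lower in 6 of 7 tissues (-0.48 ± 0.20, adjusted p = 0.24), on 2 to 17 UMIs in the rich spots of the tissues with 1 section. Of the other lists, heme recovery had 3 of 9 genes higher, Cd163 (2.07 ± 0.27), Hmox1 (1.23 ± 0.06) and Blvra (0.22 ± 0.05), uptake and handling had Ltf (1.01 ± 0.19) and Steap4 (0.38 ± 0.09) of 13, and hepcidin control and iron sensing had none. Ltf is the neutrophil granule gene named above, and the part of neutrophils in its difference was not tested.

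Endothelial cells are the known source of Bmp6 in liver. In spots rich in 8 endothelial markers 0 of 10 members passed with edgeR or DESeq2 (1 had an unadjusted p under 0.05 with edgeR, Tfrc at -0.16 ± 0.07, adjusted p = 0.33), beside 0.566% of 13243 genes called higher and 0.0680% lower. Bmp6 was higher in 5 of 7 tissues, with log2 ratios of -0.17 to 0.63. Macrophage markers (1.02-fold to 2.003-fold) and stromal markers (1.06-fold to 1.79-fold) were higher in these spots in 7 of 7 tissues and pericentral markers in 6 of 7 (ratios of 0.988 to 2.40), and their part was not tested. Of the other lists, Id1 of hepcidin control was higher (0.39 ± 0.08, adjusted p = 0.045) and no gene of the other 3 lists passed.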

How the data were processed

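Spatial gene expression was measured in 10 frozen sections of 10 µm from 7 mouse tissues. The authors deposited unnormalised UMI counts per gene and spot. The submitters' processing notes name Space Ranger 1.3 and mm10 for 6 tissues and Cell Ranger 6.0 for NEJ146, whose build is not given in the sources used here; the study's methods name another Space Ranger version. No count column went unused.

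Tissue spots were those called in tissue in the deposited position files. For NEJ146, without such a file here, spots of at least 8000 UMIs were taken. Groups followed the labels, each tissue its own. CPM was computed over tissue spots, with exact Poisson 95% intervals, and for NEJ146 as mean ± SD over sections, whose counts differed beyond sampling noise. Intervals cover counting error only, and sections of NEJ146 are of 1 tissue.

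Within-tissue comparisons used counts summed per tissue and spot set, filterByExpr, TMM factors, tissue as block, the quasi-likelihood test of edgeR 4.0.16 (R 4.3.3) and Benjamini-Hochberg adjustment over all genes tested. Calls were at adjusted p under 0.05. Spots were not replicates. The quasi-likelihood test moderates the variance of each gene toward that of all genes tested. With so few tissues, p-values thus measure the spread between these tissues only in part, least of all in the lobule fits. The fits were tested on simulated sums, where the share of false calls could exceed the nominal rate when dispersions varied between genes. SE is the log2 fold change over the square root of F. DESeq2 1.42.0, other scaling, filters, spot cuts and leaving out each tissue were alternatives.

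All 10 members are named, and from each other list at most 3 genes per comparison, those with the largest differences among those that passed. Members and lists were chosen with earlier results of these data known. No doublet caller was run on spots. Python 3.11.15 with numpy 2.4.6, pandas 2.3.3, scipy 1.17.1 and matplotlib 3.10.9 was used.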

Additional observations from a re-analysis of the deposited data

Results flagged for a closer look

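Fth1 was 6102 CPM in NEJ146 section 4 against 4675 to 4677 in the other 3 sections, so the gap was 0.999 of the whole range of the 4 sections, beyond Dixon's limit. Chance puts a gap beyond that limit in about 1 of 20 groups, and all 10 members were screened. Section 4 was also the section whose counts differed most from the others, with chi-square per degree of freedom of 64.0 to 86.6 against 14.1 to 19.4 between the other pairs.

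Hamp2, Ftl1 and Hfe moved in opposite directions between NEJ146 and the other tissues in globin-rich against globin-poor spots, and these differences between tissues were not tested. Hamp2 was at -1.465 on the log2 scale in NEJ146 and 0.48 to 0.78 in the other 3. Ftl1 was at -0.646 in NEJ146 and 0.12 to 0.31 in the other 3. Hfe was at -0.237 in NEJ146 and 0.09 to 0.20 in the other 3. In macrophage-rich against macrophage-poor spots Hamp2 was at -0.694 in NEJ146 and 0.26 to 1.93 in the other 6, and that difference was not tested either.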

How the results depend on the processing

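Of 84 recomputed counts of members, 71 stayed within 1.5 times of the reported count. Requiring a gap of at least 1 between the 4 tissues and the 3 left 1 member of 4, and leaving out each tissue gave 4 to 5. The shares of all genes given above do not hold under these settings, so these counts set no member apart. In globin-rich spots 1 member passed with DESeq2, 1 without the filter and 1 with the top 5% of spots, and 0 to 1 when a tissue was left out. In macrophage-rich spots 1 passed in NEJ146, NEJ634, NEJ687 and NEJ723 alone, and 1 to 3 when a tissue was left out, with 1 without NEJ146, NEJ723, NEJ654 or NEJ677. Along the lobule 3 to 6 passed when a tissue was left out, and for the middle against the ends 1 passed with DESeq2 and 4 without TMM factors. The globin value of Hamp2 changed sign without the filter (-0.018), without the tissue block (-0.23), with the top 5% of spots (-0.24), with rich spots taken by erythroid markers (-0.30), within 5 equal groups by spot UMIs (-0.17) or along the lobule axis (-0.043), and ran from -0.45 to 0.69 when a tissue was left out; the cause was not tested. Leaving out tissues in the comparison of 4 and 3, and drawing sets within such groups, were chosen after seeing the data. The summed markers of the lobule axis were lower in the 4 tissues named as tumours than in the other 3, and whether the axis follows a lobule there was not tested. Without the tissue block no gene passed in globin-rich spots. Of all genes, 151 passed there with edgeR, 289 with DESeq2, 269 without the filter, 89 with the top 20% of spots, 92 over all 7 tissues, 67 without NEJ687 and 70 without NEJ723. In macrophage-rich spots 499 passed, 282 in the 4 tissues alone, 297 without NEJ146 and 1199 without NEJ634. In endothelial-rich spots 84 passed, and 24 to 423 in the alternatives. Pericentral calls numbered 2012, 933 with DESeq2 and 1073 without NEJ654, and those for the middle 314, 117 with DESeq2 and 201 without NEJ654. Spot sets were paired within a tissue by the tissue block in every fit but the one named. By replicate number, no paired analysis was possible because any pair of tissues shares at most 1 number. Bmp6, at 83 to 201 UMIs in a tissue with 1 section, is limited by depth.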
